A study of Homo sapiens with 24 samples.

Results

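The flanks of EGFR are the stretches of chromosome 7 on either side of the EGFR gene that lie at 54,000,000 to 57,000,000 (build GRCh37) but outside 55,000,000 to 55,330,000. A peak belonged to a flank when its midpoint fell there. The flanks held 470 of the 13347 peaks in the 8 lists. The left flank (lower coordinates, with VSTM2A and SEC61G) runs from 54 to 55 Mb, and the right flank (with LANCL2 and VOPP1) from 55,330,000 to 57 Mb. The stretch between them, called the EGFR stretch below, held 346 peaks. The members were chosen by their measured positions, in a window picked because earlier results of these data showed many peaks there. For that reason a high number of peaks in it is a description and was not tested.

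The peaks came from chromatin immunoprecipitation followed by sequencing (ChIP-seq) in HCC827, an established cell line from a human lung adenocarcinoma whose EGFR gene is mutated and amplified. Parental cells were used beside HCC827-OR cells, which resist the EGFR inhibitor osimertinib and were kept in 1 µM of it. Each was wild-type or expressed METTL7A-MYC-tag-FLAG, the methyltransferase-like protein METTL7A with MYC and FLAG tags (marked OE in the sample names, read here as overexpression). Chromatin was precipitated with a MYC-tag antibody or, as a control, with IgG. The MYC tag is a piece of the human MYC protein, so in wild-type cells, which carry no tag, the antibody can still bind MYC itself. The labels used here do not name the promoter of the transgene or say whether a line is a clone or a pool. These 8 groups of 2 samples gave 8 lists, and the 4 groups of input samples were not analysed here. The replicates are labelled biological, but each list combines both replicates of its group, so a count has no replicate error and the lists are the unit of every test below.

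A peak in these lists was matched between both replicates by the irreproducible discovery rate (IDR) method. Its height is the lower of the replicates' −log10 p from the peak caller, at least 3 in every list, and "reproducible" means a global IDR of 0.05 or less. Heights are the authors' values and are not on 1 scale across lists. Lists held 70 to 3165 matched peaks. The METTL7A IgG lists were the shortest, with 70 (parental) and 96 (resistant) peaks, and little can be read from their few flank peaks. The files give no read totals, so the depth is unknown, and no copy number, so more copies of a segment and more binding to it cannot be told apart in these lists.

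Gene amplification copies a segment of a chromosome, and the copied segment (the amplicon) usually reaches past the selected gene into its neighbours. EGFR encodes a receptor tyrosine kinase, and its neighbours are often copied with it in tumours. Among them, VSTM2A encodes a secreted protein known from fat cell precursors. SEC61G encodes the small gamma subunit of the channel that takes new proteins into the endoplasmic reticulum. LANCL2 encodes a membrane-bound relative of bacterial lantibiotic cyclases, and VOPP1 a vesicle protein first described as amplified and overexpressed together with EGFR.

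The promoters of 3 of these genes are shown. VSTM2A and SEC61G had a peak at their start in all 4 wild-type lists. VOPP1 had a peak at its outermost start in the resistant wild-type IgG list alone, where it was the highest right-flank peak. Each is the 250 bases before an annotated start in RefSeq, build GRCh38.p14, written 5′ to 3′ on the strand of the gene, with CG dinucleotides in capitals. These positions are not in the build of the peaks and were not converted. VSTM2A is at chr7:54542125-54542374 (plus strand), SEC61G at chr7:54759212-54759461 (minus strand) and VOPP1 at chr7:55572503-55572752 (minus strand, the outermost of its 7 annotated starts).
VSTM2A: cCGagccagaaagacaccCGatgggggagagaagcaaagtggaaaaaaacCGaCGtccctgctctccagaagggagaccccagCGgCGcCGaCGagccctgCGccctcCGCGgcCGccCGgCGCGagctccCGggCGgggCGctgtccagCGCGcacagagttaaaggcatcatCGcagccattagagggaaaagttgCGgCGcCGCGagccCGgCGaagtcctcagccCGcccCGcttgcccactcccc
SEC61G: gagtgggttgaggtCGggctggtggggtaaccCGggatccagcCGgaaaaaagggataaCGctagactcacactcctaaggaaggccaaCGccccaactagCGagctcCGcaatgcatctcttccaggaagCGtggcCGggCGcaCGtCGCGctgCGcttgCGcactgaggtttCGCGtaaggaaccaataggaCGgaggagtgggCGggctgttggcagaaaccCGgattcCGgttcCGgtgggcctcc
VOPP1: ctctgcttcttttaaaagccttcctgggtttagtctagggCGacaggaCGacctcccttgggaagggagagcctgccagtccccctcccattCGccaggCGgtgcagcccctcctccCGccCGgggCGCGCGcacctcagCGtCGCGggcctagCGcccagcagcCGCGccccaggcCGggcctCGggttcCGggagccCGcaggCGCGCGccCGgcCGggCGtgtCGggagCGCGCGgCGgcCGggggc
With 50 bases after the start included, as in the RefSeq table, these windows held 34, 24 and 40 CG dinucleotides, against a median of 14 over all 35116 windows of 300 bases. Their GC content was 68.0% at VSTM2A, 61.0% at SEC61G and 77.0% at VOPP1, against a median of 58.7%. Windows at other annotated starts of these genes differed. A further VSTM2A window held 2 CG dinucleotides (59.0% GC), and the other VOPP1 windows held 3 to 41 (37.3% to 78.0% GC). The letters CACGTG, a MYC-binding E-box that reads the same on both strands, were in 0 of the 17 windows found for 10 of 14 flank genes, and in 7.26% of all windows. The 4 genes without a window in the RefSeq promoter table were LANCL2, PSPH, CCT6A and NUPR2.

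Every list had peaks in the flanks, the IgG lists included. In wild-type cells, IgG gave 36 flank peaks in parental and 64 in resistant cells, and the MYC-tag antibody gave 70 and 83. In METTL7A-expressing cells, IgG gave 1 and 9 flank peaks, and the MYC-tag antibody 109 and 98. MYC-tag lists thus held more flank peaks than the IgG list of the same cells in all 4 pairs, but the METTL7A IgG lists were short everywhere. As a share of the whole list, flank peaks made up 2.49% (exact 95% binomial interval 1.75 to 3.43) and 2.53% (1.95 to 3.22) of the wild-type IgG lists. They made up 6.97% (5.47 to 8.72) of the parental and 3.0% (2.396 to 3.71) of the resistant wild-type MYC-tag list. For METTL7A MYC-tag lists the shares were 4.7997% (3.96 to 5.76) and 3.10% (2.52 to 3.76). In METTL7A IgG lists they were 1.43% (0.0362 to 7.70) and 9.38% (4.38 to 17.1). The intervals allow for counting error alone and treat neighbouring peaks as independent. For scale, the flanks make up 0.0881% of the genome length spanned by the peaks.

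Density per 100 kb was higher in the EGFR stretch than in either flank in all 8 lists. Outside the METTL7A IgG lists, it ran from 8.18 to 21.2 peaks in the EGFR stretch, from 1.5 to 4.7 in the left flank and from 1.26 to 3.83 in the right flank. The left flank was denser than the right in all 8 lists, yet the right flank is longer and its outer part was nearly empty. In 5 segments set after the counts were seen, the density summed over the 8 lists showed this shape. It was 7.0 peaks per 100 kb at 54 to 54.4 Mb, 26.6 at 54.4 to 54.9 Mb and 66.0 at 54.9 to 55 Mb. Beyond the EGFR stretch it was 52.2 from there to 55.7 Mb and 3.85 at 55.7 to 57 Mb. The segment from 55.7 to 57 Mb held 50 of the 470 peaks, and 0 of them were reproducible. Outside the METTL7A IgG lists, which had no peak there, 0.455% to 2.68% of peaks in the rest of the genome were reproducible. With shares that low, 0 of 50 does not set the segment apart.

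**Figure D1:**
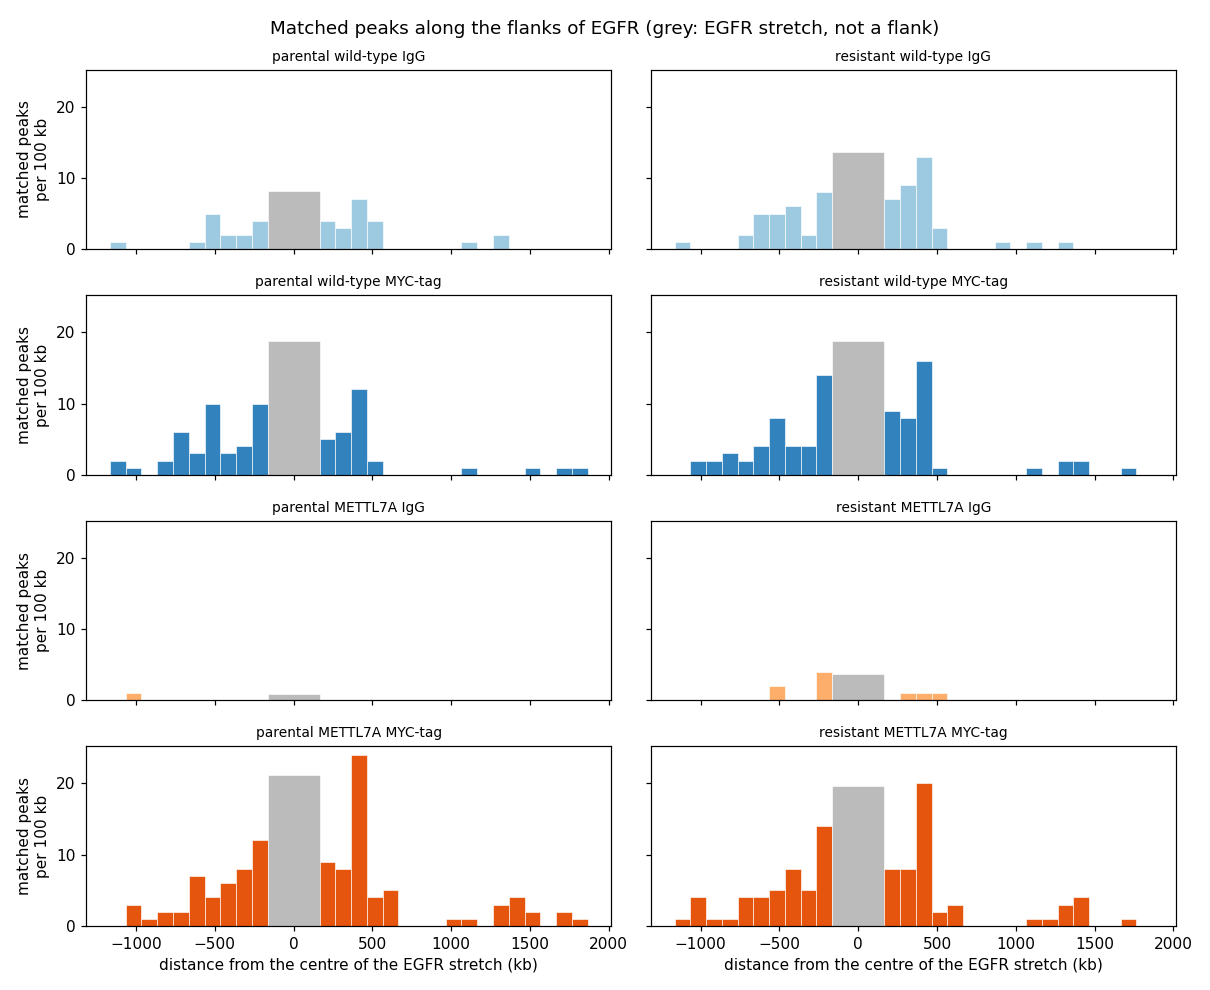
Matched peaks per 100 kb (vertical axis) by distance from the centre of the EGFR stretch in kb (horizontal axis), 1 panel per list. The grey block is the EGFR stretch, with its mean density. On the right, no list has a peak at 55.83 to 56.03 Mb, while on the left the MYC-tag lists thin out without such a gap.

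The borders of the window did not all fall where the density changed. In the 100 kb on each side of 55 Mb, the 8 lists together held 66 peaks outside the EGFR stretch and 53 inside it. At 55,330,000 they held 42 on the flank side and 102 on the side of the EGFR stretch. At the outer borders the counts were low, with 5 peaks just inside 54 Mb against 18 just outside, and 2 just inside 57 Mb against 4 just outside.

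The right flank ended sharply and at nearly the same place in the lists. Walking outwards in bins of 100 kb until 2 successive bins held fewer than 2 peaks, the right edge lay at 55.73 Mb in the parental wild-type IgG and MYC-tag lists and in the resistant wild-type IgG list. It lay at 55.63 Mb in the resistant wild-type MYC-tag list and at 55.83 Mb in both METTL7A MYC-tag lists. The METTL7A IgG lists had no bin with enough peaks, so the walk did not leave the EGFR stretch. The edges at 55.73 and 55.83 Mb lie between the starts of VOPP1 and SEPTIN14, and that at 55.63 Mb lies just before the VOPP1 start. A model with 1 high segment between low ones put the right edge at 55.63 to 55.72 Mb in the 6 lists with at least 10 flank peaks.

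The peaks at this edge coincided between the wild-type lists. In the 4 wild-type lists the last peak before 55.7 Mb ended at 55662471 (parental IgG), 55662492 (parental MYC-tag), 55662474 (resistant IgG) and 55662561 (resistant MYC-tag). Those ends lie within 90 bases of each other. The next peak outwards was 56.2 kb away in the parental IgG list, and 580 kb (parental MYC-tag), 457 kb (resistant IgG) and 580 kb (resistant MYC-tag) away in the others. In METTL7A MYC-tag lists the peaks went on somewhat further, with further peaks 30.9 kb (parental) and 144 kb (resistant) beyond the last peak before 55.7 Mb. Over all 8 lists, the longest stretch of the right flank with no peak ran from 55813336 to 56119080, a length of 306 kb. The starts of SEPTIN14, ZNF713, MRPS17 and NIPSNAP2 lie in it.

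The left flank had no common edge. The same walk gave 54.6 Mb (parental) and 54.4 Mb (resistant) for the wild-type IgG lists, and 54.3 Mb and 53.5 Mb for the wild-type MYC-tag lists. It gave 53.4 Mb and 54.4 Mb for the METTL7A MYC-tag lists, so some lists reached past the border of the window. The median over the 6 lists with at least 10 flank peaks was 54.35 Mb, and it moved to 54.85 Mb with bins of 50 kb and to 53.5 Mb with bins of 200 kb. The median right edge stayed at 55.67 to 55.73 Mb under every setting tried. The step model put the left edge at 54.39 to 54.84 Mb in those lists. Inside its edges the density was 24.6 to 43.3 times that outside in the 4 wild-type lists, and 13.1 (parental) and 12.9 (resistant) times in the METTL7A MYC-tag lists.

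**Figure D2:**
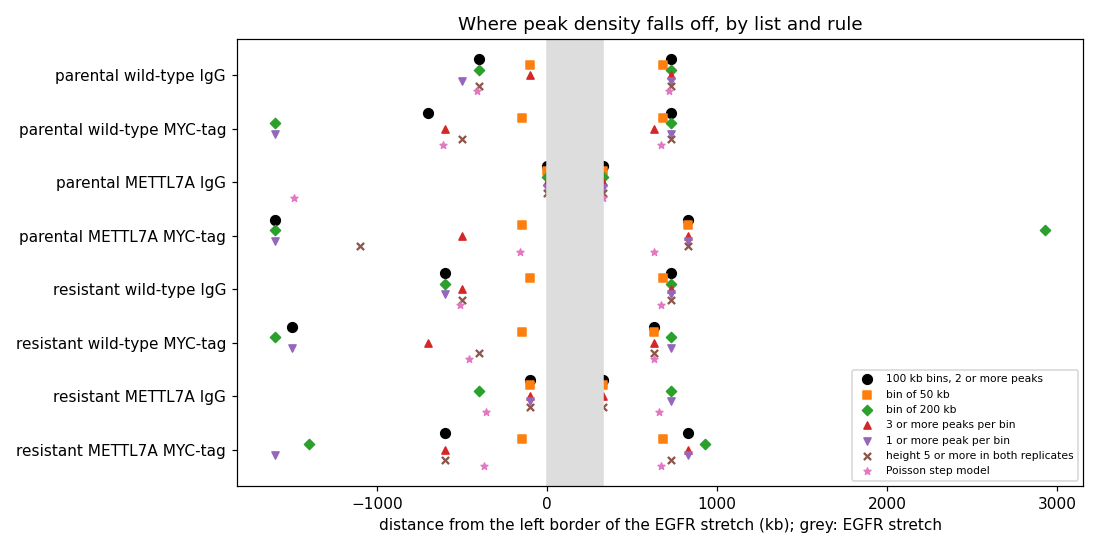
Edges of the peak-dense stretch in each list (rows) as distance from the left border of the EGFR stretch in kb, with 1 symbol per rule. A symbol on the border of the grey EGFR stretch means that no flank bin passed. Right edges lie close together in the 6 lists with at least 10 flank peaks, with 1 exception at 57.93 Mb for bins of 200 kb, and left edges are scattered.

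Gene starts in the left flank and the inner right flank carried peaks in wild-type cells, with IgG as well as with the MYC-tag antibody. At the start of VSTM2A (chr7:54609560-54611488, within 1 kb of the start) the peak height was 8.91 in parental IgG, 13.4 in parental MYC-tag, 12.9 in resistant IgG and 23.1 in resistant MYC-tag. The resistant IgG peak was not reproducible. At the start of SEC61G (chr7:54826413-54827149) the heights in the same order were 20.8, 14.1, 14.9 and 13.0, and all 4 peaks were reproducible. At the start of LANCL2 (chr7:55433138-55434657) they were 13.9, 15.6, 19.3 and 15.8, again all reproducible. None of the 4 METTL7A lists had a peak at these starts. Their MYC-tag lists had the nearest peak 7 kb (parental) and 16 kb (resistant) from VSTM2A, 16 kb in both from SEC61G, and 2 kb and 21 kb from LANCL2. At VSTM2A both MYC-tag heights lay above both IgG heights, at SEC61G both IgG heights lay above both MYC-tag heights, and at LANCL2 they overlapped. Neither order held in each replicate taken alone. At VSTM2A the second replicates had 17.8 (parental) and 85.0 (resistant) with IgG, against 17.4 and 24.3 with the MYC-tag antibody. At SEC61G the first resistant replicate had 21.3 with the MYC-tag antibody and 14.9 with IgG. Heights of different lists are also not on 1 scale.

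These 3 starts were among 6 flank positions with a peak in all 4 wild-type lists and in 0 METTL7A lists. The flanks held 19 positions with a peak in all 4 wild-type lists, so the 6 were 31.6% of them. Over the whole genome 29.6% of such positions had no METTL7A peak, a share near that of the flanks, so the pattern is not particular to the flanks. In the EGFR stretch it was 1 of 17 (5.88%), and in the rest of the genome 9 of 18 (50%). The other 3 flank positions were chr7:54765271-54767204 between VSTM2A and SEC61G, chr7:55516176-55518123 between LANCL2 and VOPP1, and chr7:56242109-56243456 beyond NUPR2. Here and below, places between genes are named by the gene starts alone, so such a position can lie inside a gene. At the last of these the heights were 6.68, 5.42, 4.25 and 8.53, and none of its peaks was reproducible. It is the only position beyond the right edge with a peak in all 4 wild-type lists.

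VOPP1 differed from VSTM2A, SEC61G and LANCL2 at the start looked at, the outermost of its annotated starts. Only the resistant wild-type IgG list had a peak there (chr7:55639337-55640374), with a height of 28.8, the highest right-flank peak of that list and reproducible. Annotated starts further inside VOPP1 were not checked for peaks. The nearest peak was 15 kb from the VOPP1 start in the parental wild-type IgG, resistant wild-type MYC-tag and both METTL7A MYC-tag lists, and 11 kb in the parental wild-type MYC-tag list. Beyond VOPP1, 3 of 10 gene starts had a peak in any list, and none of these peaks was reproducible. The share over all gene starts of the genome was not counted. PSPH, which makes the last enzyme of serine synthesis, and CCT6A, a subunit of a cytosolic chaperonin, lie head to head and shared a peak in the resistant wild-type IgG list (height 8.83). CHCHD2, which encodes a mitochondrial protein, had a peak in the parental METTL7A MYC-tag list (height 5.37). No list had a peak at the starts of SEPTIN14, ZNF713, MRPS17, NIPSNAP2, SUMF2, PHKG1 or NUPR2.

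The 470 peaks fell on 173 positions when overlapping peaks were merged, 88 on the left and 85 on the right. Of these, 63 were in 1 list, 39 in 2, 27 in 3, 23 in 4, 7 in 5, 11 in 6 and 3 in 7 lists, and none was in all 8. Thus 21 positions (12.1%) recurred in 5 or more lists, against 0.655% of positions over the whole genome and 36.1% in the EGFR stretch. The 3 positions in 7 lists lacked a peak only in the parental METTL7A IgG list, which had 1 flank peak in all. Each of the 3 merges a chain of overlapping peaks, so the lists need not share 1 peak there. They were chr7:54665724-54670604 between VSTM2A and SEC61G, chr7:55580416-55583867 between LANCL2 and VOPP1, and chr7:55654614-55662561, the edge position beyond VOPP1. Together with chr7:54973491-54974496 they were the 4 positions with a peak in 3 of the 4 IgG lists.

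At the edge position the heights in wild-type cells were 5.67 (parental IgG), 6.50 (parental MYC-tag), 7.96 (resistant IgG) and 5.77 (resistant MYC-tag). In METTL7A-expressing cells they were 12.7 (parental MYC-tag), 5.16 (resistant IgG) and 18.3 (resistant MYC-tag). Only the METTL7A MYC-tag peaks were reproducible there. The position merges 11 overlapping peaks, and here, as at other merged positions, the height of a list is that of its highest peak. The parental wild-type IgG peak that ended at the edge had a height of 4.53. The resistant METTL7A IgG peak ended before the edge, at 55659368.

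Reproducible peaks recurred between SEC61G and EGFR. At chr7:54852680-54853944 the peak was reproducible in all 4 MYC-tag lists, with heights of 9.45 (parental wild-type), 9.51 (resistant wild-type), 16.67 (parental METTL7A) and 18.0 (resistant METTL7A). The wild-type IgG lists had peaks of 5.16 and 8.70 there that were not reproducible. At chr7:54906912-54907983 the MYC-tag heights in the same order were 9.48, 7.78, 17.5 and 17.5, all reproducible, beside IgG heights of 5.39 and 5.97. At both places the wild-type MYC-tag height lay above the IgG height of the same cell state, and the METTL7A IgG lists had no peak. Single replicates did not all keep that order. The second parental replicate had 17.6 with IgG and 14.4 with the MYC-tag antibody at the first place. At the other place the second resistant replicate had 9.64 with IgG and 7.78 with the MYC-tag antibody. Heights of different lists are also not on 1 scale.

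The highest left-flank peak of both METTL7A MYC-tag lists was chr7:54849404-54850820, also between SEC61G and EGFR, at heights of 21.3 (parental) and 25.6 (resistant). It had a peak in all 4 MYC-tag lists and in 0 IgG lists. The wild-type MYC-tag lists had it at 5.41 (parental, not reproducible) and 12.5 (resistant, reproducible). Of the 21 positions with a peak in all 4 MYC-tag lists, 3 had no peak in any IgG list. The others, named after their values were seen, were chr7:54977893-54978608 between SEC61G and EGFR, with MYC-tag heights of 5.96 to 8.20, and chr7:55584967-55586928 between LANCL2 and VOPP1, with 4.86 to 12.8. The share of such positions over the whole genome was not counted. Absence from the short METTL7A IgG lists says little. The highest left-flank peak of the resistant wild-type IgG list was at chr7:54730254-54733590, between VSTM2A and SEC61G, at 29.7. That position was in 6 lists, with 18.5 in parental wild-type IgG, 4.62 and 5.83 in the wild-type MYC-tag lists, and 10.7 and 14.6 in the METTL7A MYC-tag lists. There the IgG heights exceeded the MYC-tag heights in wild-type cells of both states. In METTL7A IgG lists the highest left-flank peaks were 4.38 at chr7:54182568-54183674 (parental) and 6.94 at chr7:54927082-54928659 (resistant).

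On the right, the highest METTL7A MYC-tag peaks lay between the starts of LANCL2 and VOPP1. They were 21.0 at chr7:55553120-55558423 in parental and 22.7 at chr7:55540545-55545882 in resistant cells. Both positions also had peaks in all 4 wild-type lists, at 6.53 to 11.8 for the first and 5.22 to 8.24 for the second. At chr7:55534713-55535220 the METTL7A MYC-tag lists had 18.0 and 13.7 and the resistant wild-type MYC-tag list 8.93, and no IgG list had a peak. At chr7:55559724-55561281 the peak was reproducible in all 4 lists that had it, with heights of 12.3 (parental wild-type IgG), 11.9 (parental wild-type MYC-tag), 10.98 (parental METTL7A MYC-tag) and 19.3 (resistant METTL7A MYC-tag). The highest right-flank peak of the resistant wild-type MYC-tag list was chr7:55516176-55518123 at 24.05, where the resistant IgG list had 19.98 and the parental lists 10.1 (IgG) and 4.82 (MYC-tag). In the parental wild-type lists the start of LANCL2 was the highest right-flank peak.

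Several further recurrent positions had their highest peak in a METTL7A MYC-tag list. At chr7:54727802-54729211, between VSTM2A and SEC61G, the METTL7A MYC-tag heights were 20.2 (parental) and 16.66 (resistant), both reproducible. The 3 wild-type peaks there, at 9.19 (parental MYC-tag), 8.99 (resistant IgG) and 7.96 (resistant MYC-tag), were not. At chr7:55531272-55532980, between LANCL2 and VOPP1, the METTL7A MYC-tag heights were 20.1 and 16.6, both reproducible, and the 4 wild-type peaks ranged from 5.31 to 10.1 and were not. At both positions the METTL7A MYC-tag heights lay above all wild-type heights, although heights of different lists are not on 1 scale. Right of EGFR, chr7:55345279-55347890 had reproducible peaks of 10.9 and 16.5 in the METTL7A MYC-tag lists and 13.1 in the resistant wild-type MYC-tag list, beside 6.12 in parental wild-type MYC-tag and 10.2 in resistant wild-type IgG.

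At other recurrent positions the METTL7A MYC-tag lists did not both lie above all wild-type lists. The highest peak could still be in one of them, as at chr7:55410012-55413345 and chr7:55567410-55568750. At chr7:55490592-55495053, between LANCL2 and VOPP1, the reproducible heights were 9.24 and 8.75 in the wild-type MYC-tag lists and 8.95 in the resistant METTL7A MYC-tag list. The other peaks there were 9.44 in resistant wild-type IgG, 6.84 in parental METTL7A MYC-tag and 4.41 in resistant METTL7A IgG. At chr7:55410012-55413345, just before LANCL2, the parental wild-type IgG peak of 8.75 and the parental METTL7A MYC-tag peak of 12.5 were reproducible, while the resistant METTL7A MYC-tag list had 3.15. At chr7:54765271-54767204 the wild-type heights were 11.2 (parental IgG), 6.81 (parental MYC-tag), 14.8 (resistant IgG) and 11.4 (resistant MYC-tag), with no METTL7A peak. There each IgG height lay above the MYC-tag height of the same state, but single replicates did not all keep that order. The second parental replicate had 17.9 with the MYC-tag antibody and 11.2 with IgG. In the first resistant replicate the values were 39.3 and 14.8. Positions chr7:54621259-54622711 and chr7:55567410-55568750 recurred in 5 lists with no reproducible peak, at heights of 3.28 to 8.02 and 3.92 to 6.54.

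**Figure D3:**
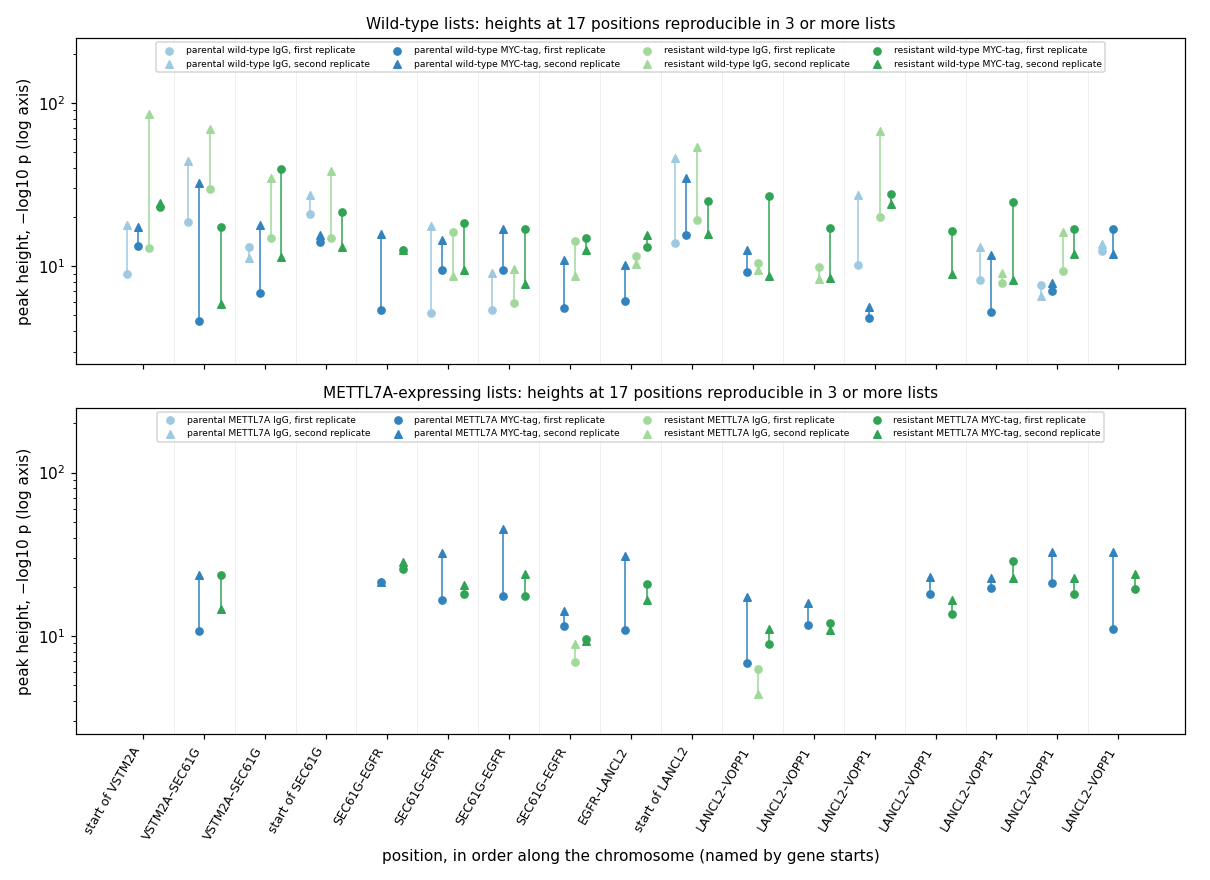
Peak height in each replicate (−log10 p, log axis) at the 17 positions with a reproducible peak in 3 or more lists, in chromosomal order, for wild-type lists (top) and METTL7A lists (bottom). Circles and triangles are the replicates of a list, joined by a line, and a missing symbol means no matched peak. The starts of VSTM2A, SEC61G and LANCL2 have symbols only in the upper panel, and some replicates of a list differ several-fold.

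Every flank position that was reproducible in both METTL7A MYC-tag lists also had a wild-type peak. There were 21 such positions, of which 18 (85.7%) had a peak in a wild-type IgG list. Over the whole genome, 90.3% of 62 such positions had a wild-type peak and 75.8% a wild-type IgG peak. Most of the 62 lie in the flanks or the EGFR stretch (25 positions, 88.0% and 76.0%). The 16 positions elsewhere had shares of 81.25% and 62.5%. Counting all matched peaks, 64 positions were in both METTL7A MYC-tag lists, and 19 of these (29.7%) had no wild-type peak. That share was 52.8% over the whole genome, 15.4% in the EGFR stretch and 63.4% elsewhere. By antibody, 104 positions were in MYC-tag lists only, 6 in IgG lists only and 63 (36.4%) in both. Over the whole genome 65.3% of positions were in MYC-tag lists only, 27.5% in IgG lists only and 7.18% in both. By cell state, 36 were parental only, 35 resistant only and 102 (59.0%) in both, against 30.3%, 60.8% and 8.86% over the whole genome. By genotype, 38 were wild-type only, 59 METTL7A only and 76 (43.9%) in both, against 54.4%, 39.8% and 5.83%. In the EGFR stretch the shares in both were 48.2%, 78.3% and 67.5%, above those of the flanks.

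Flank peaks were more often reproducible than peaks of the whole list in all 8 lists, in the METTL7A IgG lists from 1 and 9 peaks. Because the window was chosen for its peaks, these shares are descriptions. They depend on the threshold, and at a global IDR of 0.01 the flank share was above that of the list in 6 of 8 lists. There it fell to 0% in parental wild-type MYC-tag, where 0 peaks of the list passed, and to 0% in resistant METTL7A IgG, against 3.12% of that list. It was 6.02% in resistant wild-type MYC-tag, against 0.434%, and 4.69% in resistant wild-type IgG, against 0.277%. It was 25% in parental wild-type IgG, against 1.39%, and 25.7% and 23.5% in the METTL7A MYC-tag lists, against 3.52% and 2.05%. In wild-type IgG lists, 11 of 36 flank peaks (30.6%, exact 95% binomial interval 16.3 to 48.1) were reproducible in parental cells against 2.15% of the whole list. In resistant cells it was 6 of 64 (9.38%, 3.52 to 19.3) against 0.791%. In wild-type MYC-tag lists it was 11 of 70 (15.7%, 8.11 to 26.4) against 2.59% in parental, and 21 of 83 (25.3%, 16.4 to 36.0) against 2.28% in resistant cells.

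METTL7A MYC-tag lists held the most reproducible flank peaks. There 41 of 109 (37.6%, 28.5 to 47.4) were reproducible in parental cells against 6.38% of the list. In resistant cells it was 36 of 98 (36.7%, 27.2 to 47.1) against 3.29%. In METTL7A IgG lists it was 1 of 1 against 75.7%, and 3 of 9 (33.3%, 7.49 to 70.1) against 13.5%. The share of reproducible peaks in the EGFR stretch was 68.6% and 50.8% in the METTL7A MYC-tag lists, above that of the flanks. In the wild-type lists it lay between 6.67% and 25.8%, within the interval of the flank share of each list. Of all reproducible peaks of a list, the flanks held 28.3% to 42.3% in the 4 MYC-tag lists, 35.5% and 30.0% in the wild-type IgG lists, and 1.89% and 23.1% in the METTL7A IgG lists.

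**Figure D4:**
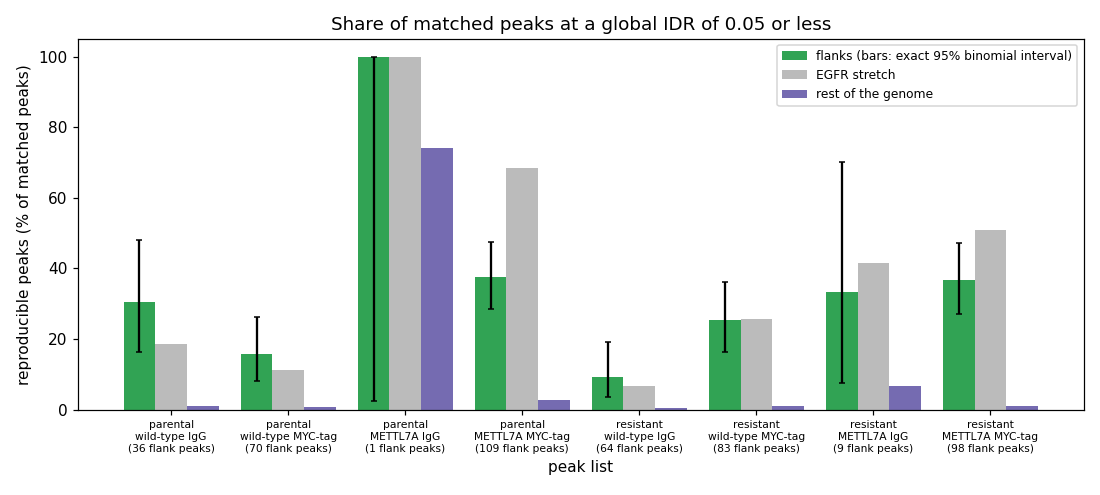
Share of matched peaks at a global IDR of 0.05 or less (vertical axis, %) in the flanks (green, with exact 95% binomial intervals), the EGFR stretch (grey) and the rest of the genome (purple), per list. The flank bars stand above the purple bars in all 8 lists, and the parental METTL7A IgG bar rests on 1 peak.

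Flank peaks were also higher than peaks elsewhere in the same list. The median flank height was 5.63 and 6.44 in the wild-type IgG lists against 3.70 and 4.43 in the rest of the genome, for parental and resistant cells. In wild-type MYC-tag lists it was 5.82 and 5.95 against 4.28 and 4.07, and in METTL7A MYC-tag lists 7.30 and 6.93 against 4.65 and 4.49. A height of 9 or more was reached by 40 of 109 (36.7%) and 36 of 98 (36.7%) flank peaks of the METTL7A MYC-tag lists. The shares were 2.34% and 1.07% in the rest of the genome, and 62.9% and 46.2% in the EGFR stretch. In wild-type MYC-tag lists 11 of 70 (15.7%) and 16 of 83 (19.3%) flank peaks reached it. There the rest of the genome had 0.802% and 0.877%, and the EGFR stretch 14.5% in both. In wild-type IgG lists it was 7 of 36 (19.4%) and 13 of 64 (20.3%). There the rest of the genome had 0.507% and 2.89%, and the EGFR stretch 18.5% and 31.1%. Replicate heights ranked alike to differing degrees. Across flank peaks, which are not independent, Spearman's rho between replicates was 0.527 and 0.523 in the METTL7A MYC-tag lists and 0.598 in parental wild-type IgG. It was 0.218, 0.175 and 0.0867 in the parental wild-type MYC-tag, resistant wild-type IgG and resistant wild-type MYC-tag lists.

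In 10 of 12 list pairs, a larger share of flank peaks than of peaks elsewhere overlapped the other list, and the 2 exceptions have a METTL7A IgG list as the first list. Between antibodies, 28 of 70 flank peaks (40%) of the parental wild-type MYC-tag list overlapped an IgG peak by 1 bp or more, against 15.2% of the whole list. These covered 77.8% of the IgG flank peaks. In resistant wild-type cells 41 of 83 (49.4%) did, against 12.8%, covering 71.9% of the IgG flank peaks. In METTL7A-expressing cells, 1 of 109 (0.917%, against 0.396%) and 7 of 98 (7.14%, against 0.695%) MYC-tag flank peaks overlapped the short IgG lists.

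Between genotypes, 35 of 109 flank peaks (32.1%) of the parental METTL7A MYC-tag list overlapped the wild-type MYC-tag list, against 6.61% of the whole list and 64.3% in the EGFR stretch. Seen from the wild-type list, 58.6% of its flank peaks were shared. In resistant cells 49 of 98 (50%) overlapped, against 8.21% and 70.8%, and 55.4% of wild-type flank peaks were shared.

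Between cell states, the share depended on the list it was taken of. Of the resistant METTL7A MYC-tag flank peaks 73 of 98 (74.5%) overlapped a parental peak, against 14.7% of the whole list and 92.3% in the EGFR stretch, and 59.6% of parental flank peaks were shared. For the wild-type MYC-tag lists it was 45 of 83 (54.2%) against 6.65%, with 67.1% of parental flank peaks shared. For the wild-type IgG lists it was 26 of 64 (40.6%) against 8.46%, with 75.0% of parental flank peaks shared. The remaining pairs rest on the METTL7A IgG lists. Of the resistant METTL7A IgG flank peaks, 5 of 9 overlapped the wild-type IgG list (background 15.6%) and 0 of 9 the parental METTL7A IgG list (background 2.08%). The 1 parental METTL7A IgG flank peak overlapped no wild-type IgG peak (background 7.14%).

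**Figure D5:**
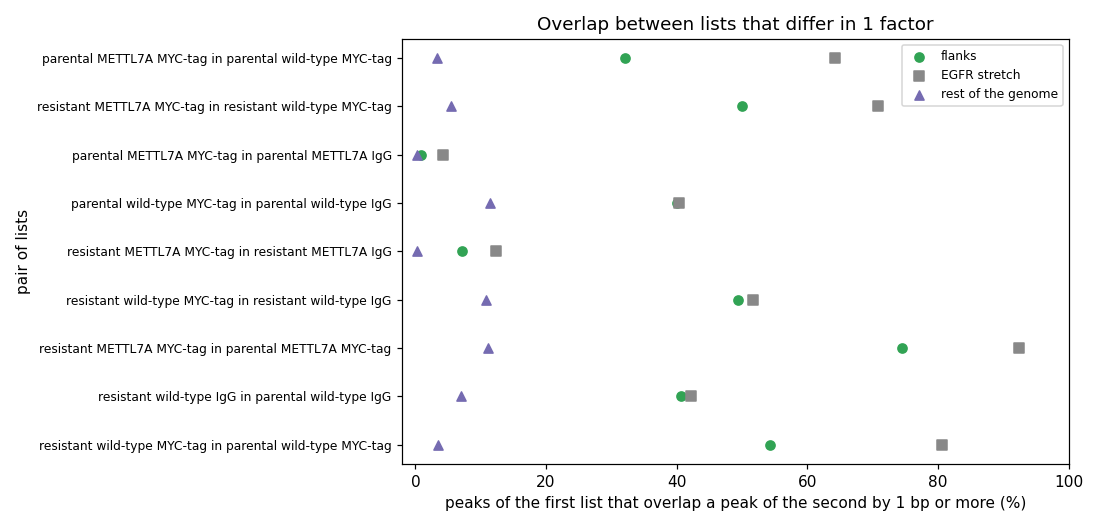
Share of peaks of the first list (%, horizontal axis) that overlap the second list by 1 bp or more, for the 9 list pairs whose first list has at least 10 flank peaks. Green circles are flank peaks, grey squares the EGFR stretch and purple triangles the rest of the genome. Each circle lies to the right of its triangle, and each square to the right of or close to its circle.

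No difference between the study's groups in the balance of the sides, or of flanks and EGFR stretch, passed the test. The tests were 6 two-sided exact permutation tests of 4 lists against 4, with Benjamini-Hochberg adjustment over the 6, and the smallest p this design allows is 0.0286. If a single exact permutation test reached it, the adjusted value would be 0.171. One maximal difference alone could therefore not pass, and the lack of a pass says little. The left flank held 49.9% ± 7.23 (SD, n = 4 lists) of flank peaks with the MYC-tag antibody and 63.4% ± 26.8 with IgG (exact permutation p = 0.429, adjusted 0.643). It held 64.0% ± 26.3 in METTL7A and 49.3% ± 7.45 in wild-type lists (exact permutation p = 0.371, adjusted 0.643). For resistant and parental lists the values were 52.9% ± 9.53 and 60.4% ± 27.6 (exact permutation p = 0.743, adjusted 0.743).

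Of the peaks in flanks and EGFR stretch together, the flanks held 57.8% ± 3.56 (SD, n = 4 lists) with the MYC-tag antibody and 45.9% ± 15.7 with IgG (exact permutation p = 0.200, adjusted 0.643). They held 47.2% ± 16.99 in METTL7A and 56.5% ± 2.44 in wild-type lists (exact permutation p = 0.429, adjusted 0.643). In resistant and parental lists they held 54.7% ± 8.005 and 49.0% ± 16.3 (exact permutation p = 0.600, adjusted 0.720). The short METTL7A IgG lists set most of the spread, and without these lists 5 of the 6 differences changed sign. These p-values compare lists and do not measure the spread between cultures.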

How the data were processed

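ChIP-seq of 24 HCC827 samples gave 8 peak lists from 16 samples, and the 8 input samples were not analysed here. The submitters' processing notes list build GRCh37, MACS2 2.2.7.1, Bowtie2 2.4.2, bedtools 2.30, deepTools 3.5.1, SAMtools 1.16, FastQC and Trimmomatic, without roles. Not given in the sources used here were the control library, duplicate removal, blacklist and IDR version. The deposited values are −log10 p of the peak caller in each replicate and a reproducibility score, −log10 of the global IDR. The authors give no read totals.

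Peaks were placed by their midpoint, merged into positions where they overlapped by 1 bp or more, and counted with Python 3.11.15, pandas 2.3.3 and SciPy 1.17.1. Intervals are exact (Clopper-Pearson), and adjusted p-values use Benjamini-Hochberg over 6 exact permutation tests of 70 arrangements each. The edge walk and step model were tested on simulated data. The text names positions with a peak in 5 or more lists, the highest peak of each list on each side, positions reproducible in 3 or more lists, those reproducible in both METTL7A MYC-tag lists with no peak in any other list (none), and those in 3 or more IgG lists, a few of them by count only. Other positions, and the segments of density, were chosen after their values were seen. Members, genes and lists were chosen with earlier results of these data known. No GRCh37 annotation was used. The starts of 14 genes in that build were entered by hand to the nearest kb from general knowledge, and the spacing of all 13 neighbouring pairs agreed within 2 kb with the RefSeq GRCh38.p14 table. A peak within 1 kb counted as at the start. Alternatives were other bin sizes, peak minimums, heights, IDR thresholds and overlaps, and leaving out short lists.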

Additional observations from a re-analysis of the deposited data

Results flagged for a closer look

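Outside the window, the highest IgG counts were 5 peaks at 53 to 54 Mb and 4 at 57 to 58 Mb. All 4 MYC-tag lists exceeded the first, and the METTL7A MYC-tag lists alone exceeded the second. At 53 to 54 Mb the parental wild-type, parental METTL7A, resistant wild-type and resistant METTL7A MYC-tag lists held 10, 14, 9 and 11 matched peaks. At 57 to 58 Mb the METTL7A MYC-tag lists held 26 (parental) and 28 (resistant), while the wild-type MYC-tag lists held 3 and 4. The lists differ in length, and these differences were not tested.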

How the results depend on the processing

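No paired analysis was possible by replicate number because each list combines both replicates of its group, and for the same reason no replicate could be left out. Lists that differ in 1 factor were paired instead, and exact permutation by sign flips within the 4 pairs gave p-values of 0.25 to 0.625 (all adjusted to 0.625), in a design of 16 flips that cannot reach 0.05. The sign of the non-significant differences between groups was not stable. The left share, MYC-tag minus IgG, became 2.16 percentage points with a height of 5 or more in the second replicate and 6.42 in lists with at least 10 flank peaks. METTL7A minus wild-type became −4.72 in those lists. Resistant minus parental became 6.05 with a height of 5 or more in both replicates, 2.53 with it in the second replicate and 1.19 in those lists. The flank share of flanks plus EGFR stretch, resistant minus parental, became −5.80 with a height of 5 or more in both replicates and −4.54 in the second replicate. In lists with at least 10 flank peaks its MYC-tag minus IgG value became −0.107 and its METTL7A minus wild-type value 3.98. With reproducible peaks only, the flank share was 23.1 points lower in METTL7A than in wild-type lists, at the smallest p the exact permutation test allows (0.0286, adjusted 0.171). The median left edge moved from 54.35 Mb to 54.85 Mb (bins of 50 kb), 53.5 Mb (bins of 200 kb), 53.45 Mb (1 or more peak per bin), 54.5 Mb (height of 5 or more) and 54.565 Mb (step model). The median right edge moved by less than the spread between lists under each of these settings. The median reproducible share fell from 31.9% to 14.7% at a global IDR of 0.01. Over all settings of these results, 10 values reversed, 6 moved and 40 did neither, but unreversed differences between groups could still change in size, and the cause was not tested. The 40 include the sign flips, which change only the p-value, and the setting of any overlap of 1 bp or more. Both gave exactly the same group differences as the main setting, so they say nothing about stability. Unknown depth limits every count.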
